A study of Mus musculus with 9 samples.

Results

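Chemokine receptors are membrane proteins that couple chemokine ligands to G proteins and steer leukocyte movement, and 9 of them were followed here across LSK cells, the Lin-Sca1+cKit+ cells of the bone marrow, among which are the blood stem cells and multipotent progenitors. The 9 genes, Ccr1, Ccr2, Ccr7, Ccr9, Cxcr2, Cxcr3, Cxcr4, Cxcr5 and Cx3cr1, were taken by name, out of 18193 genes named on the array. Every probe set whose platform annotation names exactly 1 of these symbols was used, which gave 18 probe sets. A probe set is the group of short array probes that reports 1 transcript. Of the 9 receptors 5 (Ccr2, Ccr9, Cxcr2, Cxcr4 and Cx3cr1) had a mean level above the filter on low values, the 40th percentile of the probe sets (4.03 on the log2 scale), and were tested. Ccr1, Ccr7, Cxcr3 and Cxcr5 did not, and their levels are given without a test.

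The arrays fell into 3 groups of 3, all from mice of the C57BL6 background, whose age is not given in the labels, taken 8 weeks after transplantation. GFP-positive LSK cells came from lethally irradiated mice that had received cells transduced, after culture with cytokines, with a retroviral vector for the transgene named dnMPL, and carried the GFP mark. The labels call the transplanted cells LSK cells and the design text calls the transduced cells lin- marrow cells. GFP-negative LSK cells were sorted from mice of the same kind without that mark, and control LSK cells came from mice transplanted with wild-type LSK cells. The labels name neither the promoter that drives dnMPL nor a vector in the control cells, so transduction and dnMPL cannot be told apart. Each array held RNA of marrow pooled from 2 to 5 mice, and GFP-positive and GFP-negative samples may share mice. P-values measure the spread between these pooled samples.

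Array medians lay between 4.52 and 4.64, and with 3 arrays a group the precision is limited. Control 3 and GFP-positive 2 stood apart from the other arrays. Their array weights, which limma sets lower for noisier arrays, were 0.369 on GFP-positive 2 and 0.365 on control 3, and the remaining 7 arrays had weights of 0.809 to 2.38. For Gapdh, the 3' control probe set exceeded the 5' one by 3.22 on GFP-positive 2 and 3.87 on control 3, and by 2.47 to 2.89 elsewhere, a gap that grows when transcripts are incomplete. Kit, 1 of the genes of the LSK gate, was at 8.17, 6.38 and 8.17 on the GFP-positive arrays, at 8.02, 8.22 and 7.92 on the GFP-negative arrays and at 8.73, 8.67 and 8.08 on the controls, so that GFP-positive 2 was lowest. Ly6a, which encodes Sca1, was not used here.

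Each receptor is known for its own ligands and cells. Cxcr4 binds Cxcl12, which marrow stromal cells make, and this pair holds stem cells and neutrophils in the marrow. Cxcr2 answers to neutrophil-attracting CXC ligands such as Cxcl1 and Cxcl2, and Ccr2 to the monocyte chemoattractant Ccl2. Ccr1 binds inflammatory CC ligands such as Ccl3, and Cx3cr1, found on monocytes, binds Cx3cl1. Ccr7 with Ccl19 and Ccl21, Ccr9 with Ccl25, Cxcr3 with Cxcl9 and Cxcl10, and Cxcr5 with Cxcl13 guide lymphocytes and other immune cells to lymph nodes, thymus and gut, inflamed tissue and follicles.

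Of these receptors, Ccr2 and Cxcr4 were the ones whose brightest probe set was higher on 6 of 6 dnMPL arrays, GFP-positive and GFP-negative, than on every control. The 250 bases before their start sites are shown because these regions lie directly upstream of where transcription of the 2 genes begins. The sequences are from RefSeq on build GRCm38.p6, the Ccr2 window at chr9:124101933-124102182 on the plus strand and the Cxcr4 window at chr1:128592300-128592549 on the minus strand, each 5' to 3'. Capitals mark matches on either strand to 4 motifs, the GATA motif AGATAA, the ETS motif GAGGAA, the TATA box TATAAA and the NRF1 motif, 10 bases of which the sixth may be any base.
Ccr2: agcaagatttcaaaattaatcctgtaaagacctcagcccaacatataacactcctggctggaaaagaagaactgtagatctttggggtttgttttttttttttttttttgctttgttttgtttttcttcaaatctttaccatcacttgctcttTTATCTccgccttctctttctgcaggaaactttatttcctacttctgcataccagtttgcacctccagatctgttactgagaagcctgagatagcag
Cxcr4: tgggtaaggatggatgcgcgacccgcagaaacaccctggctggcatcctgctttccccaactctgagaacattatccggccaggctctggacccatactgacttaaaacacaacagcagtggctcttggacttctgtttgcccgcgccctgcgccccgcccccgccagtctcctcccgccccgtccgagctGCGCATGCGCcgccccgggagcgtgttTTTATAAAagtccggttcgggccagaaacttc
The Ccr2 window held 1 match, to the GATA motif on the opposite strand, from base -97 to base -92 before the start site. The Cxcr4 window held the NRF1 motif, as GCGCATGCGC, from -59 to -50 and 2 overlapping TATA box matches, 1 on each strand, from -32 to -27 and from -30 to -25. Among 32851 windows of the same length 9.99% held the GATA motif, 3.74% the NRF1 motif, 12.4% the TATA box and 23.3% the ETS motif. CpG pairs numbered 1 in the Ccr2 window and 19 in the Cxcr4 window, against a median of 6 over all windows. Windows were at hand for 7 of the 9 receptors, and the ETS motif was found in those of Ccr1, Cxcr2 and Cxcr3. These matches describe the letters of the windows.

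Cxcr4 was the receptor with the brightest signal relative to other probe sets, between the 98.8th and the 99.6th percentile of each array. Its level was 12.17, 12.25 and 11.95 (log2 RMA) on the GFP-positive arrays and 12.38, 11.87 and 11.93 on the GFP-negative arrays, against 11.34, 11.80 and 10.88 on the controls. Both dnMPL fractions lay above the controls, and the lowest dnMPL array exceeded the highest control by 0.068. The fractions themselves overlapped. The mean was 12.13 ± 0.16 in GFP-positive LSK cells, 12.06 ± 0.28 in the GFP-negative ones and 11.34 ± 0.46 among controls (SD, n = 3 each). GFP-positive cells differed from controls by 0.79 ± 0.31 (SE) on the log2 scale, a 1.72-fold higher level, and GFP-negative cells by 0.72 ± 0.31, or 1.65-fold. Neither passed (limma adjusted p = 0.72 and 0.876). The difference between GFP-positive and GFP-negative cells was 0.066, with a 95% interval from -0.62 to 0.76 (limma adjusted p = 1.00). For both fractions as 1 group against the controls, the difference was 0.75 ± 0.27 (limma adjusted p = 0.591), and 0.49 without control 3 and GFP-positive 2, the arrays that stood apart.

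Ccr2 showed the receptor set's smallest unadjusted p against control. Its brightest probe set, 1421187_at, was at 6.67, 6.52 and 5.15 on the GFP-positive arrays and at 5.53, 5.82 and 5.73 on the GFP-negative arrays, against 4.29, 3.68 and 4.54 on the controls. All 6 dnMPL arrays lay above the 3 controls, with a gap of 0.61 between the nearest arrays, while the dnMPL fractions overlapped. Ccr2 averaged 6.11 ± 0.84 in GFP-positive LSK cells, 5.69 ± 0.15 in the GFP-negative ones and 4.17 ± 0.44 among controls (SD, n = 3 each). The difference from control was 1.94 ± 0.42 (SE) in GFP-positive cells, 3.85-fold, and 1.52 ± 0.42 in GFP-negative cells, 2.88-fold, and it did not pass in either (limma adjusted p = 0.402 and 0.647). Both fractions together differed from control by 1.73 ± 0.37 (limma adjusted p = 0.245), a difference that ranked 47th by p among 12398 genes. GFP-positive and GFP-negative cells differed by 0.42, with a 95% interval from -0.53 to 1.37 (limma adjusted p = 1.00).

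The 4 Ccr2 probe sets did not give 1 pattern. Probe set 1421188_at was at 5.93, 5.64 and 5.36 on the GFP-positive arrays and at 3.84, 4.26 and 3.95 on the GFP-negative arrays, against 4.24, 2.80 and 4.66 on the controls. On this probe set the GFP-positive arrays stood above the other 6, and the GFP-negative arrays lay within the range of the controls. GFP-positive cells differed from controls by 1.74 ± 0.46 (SE) and GFP-negative cells by 0.11 ± 0.46, when each of 27022 probe sets was a feature of its own (limma adjusted p = 0.644 and 0.987). On the same probe set GFP-positive and GFP-negative cells differed by 1.63 ± 0.46 (SE), with a 95% interval from 0.60 to 2.65, and did not pass (limma adjusted p = 1.00, unadjusted p = 0.00574). The lead of 1421187_at over 1421188_at was 0.47 ± 0.60 in GFP-positive cells, 1.68 ± 0.11 in the GFP-negative ones and 0.27 ± 0.54 among controls (SD, n = 3 each). Both are annotated with 1 accession, and why they part in GFP-negative cells was not tested. The other Ccr2 probe sets, 1421186_at and 1460067_at, had means below the filter, and their dnMPL and control arrays overlapped. By the mean of the 4 probe sets, Ccr2 differed by 1.25 in GFP-positive and 0.53 in GFP-negative cells against control (limma adjusted p = 0.459 and 0.881).

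**Figure D1:**
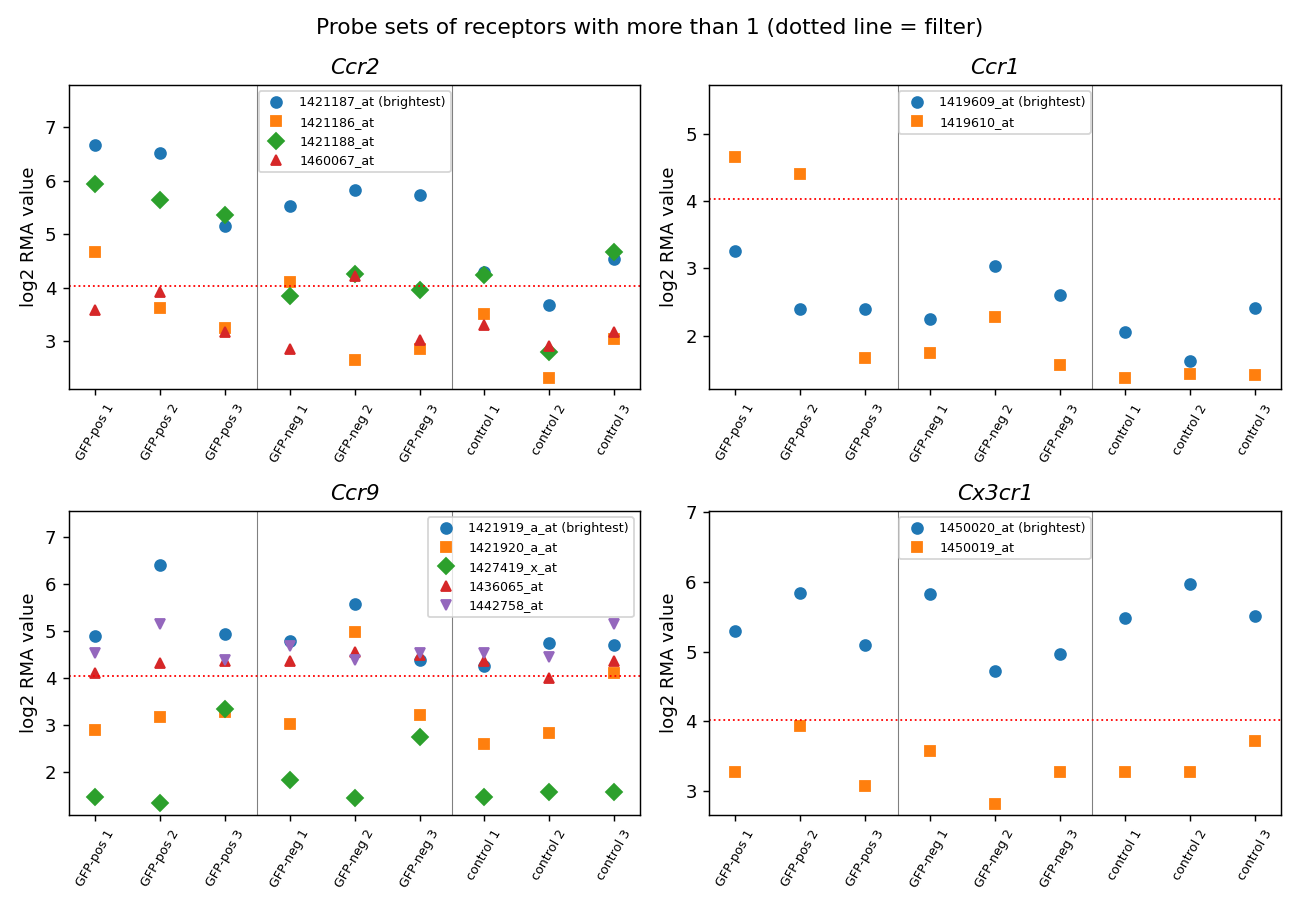
Log2 RMA value (vertical) of every probe set of the receptors with more than 1, on each array (horizontal), with GFP-positive left, GFP-negative in the middle and control right. Ccr2 probe set 1421187_at is above the controls on all 6 dnMPL arrays and 1421188_at on the 3 GFP-positive arrays alone, and Ccr1 probe set 1419610_at stands at 4.66 and 4.41 on GFP-positive 1 and 2.

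Cxcr2 had the largest difference of the 5 tested receptors between GFP-positive and control cells and also the widest spread. Its single probe set was at 8.74, 8.59 and 6.82 on the GFP-positive arrays and at 7.53, 5.88 and 6.02 on the GFP-negative arrays, against 4.21, 5.44 and 7.19 on the controls. GFP-positive 1 and 2 were highest, and control 3 lay above GFP-positive 3 and 2 of the GFP-negative arrays, so all groups overlapped. The difference from control was 2.43 ± 0.80 (SE) in GFP-positive cells, 5.40-fold, and 0.86 ± 0.80 in GFP-negative cells (limma adjusted p = 0.664 and 0.931). GFP-positive and GFP-negative cells differed by 1.57, with a 95% interval from -0.24 to 3.37 (limma adjusted p = 1.00). The GFP-negative difference from control was 0.16 without control 1 and 1.65 without control 3.

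Ccr9 and Cx3cr1, the other receptors tested, differed by less than 1 log2 unit between the groups. Ccr9, by its brightest probe set 1421919_a_at, was at 4.88, 6.40 and 4.93 on the GFP-positive arrays and at 4.78, 5.56 and 4.37 on the GFP-negative arrays, against 4.25, 4.73 and 4.71 on the controls. The GFP-positive arrays lay just above the controls and replicate 2 of each fraction was the highest in it. GFP-positive cells differed from controls by 0.84 ± 0.47 (SE) and GFP-negative cells by 0.35 ± 0.47 (limma adjusted p = 0.818 and 0.952), and the 2 fractions by 0.497, with a 95% interval from -0.55 to 1.54. Without GFP-positive 2, an array that stood apart, GFP-positive cells differed from controls by 0.34. Of the other 4 Ccr9 probe sets, 1436065_at and 1442758_at passed the filter, and GFP-positive cells differed from controls by 0.022 and -0.019 on them. On these a single value recurred on 4 and 3 arrays, which makes their spread look small. Cx3cr1, by 1450020_at, was at 5.30, 5.85 and 5.09 on the GFP-positive arrays and at 5.83, 4.73 and 4.96 on the GFP-negative arrays, against 5.48, 5.96 and 5.51 on the controls. It was the 1 tested receptor with a lower mean in both fractions than in controls, by -0.24 ± 0.36 and -0.48 ± 0.36 (limma adjusted p = 0.981 and 0.926), with all groups overlapping. Its dimmer probe set, 1450019_at, lay between 2.82 and 3.94 on all arrays.

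Ccr1 was below the filter on both of its probe sets. Probe set 1419609_at was at 3.26, 2.39 and 2.39 on the GFP-positive arrays and at 2.25, 3.04 and 2.61 on the GFP-negative arrays, against 2.06, 1.62 and 2.41 on the controls. Probe set 1419610_at was at 4.66, 4.41 and 1.67 on the GFP-positive arrays, at 1.75, 2.28 and 1.56 on the GFP-negative arrays and at 1.37, 1.43 and 1.42 on the controls. GFP-positive 1 and 2 stood more than 2 units above every other array on the second probe set, at or near the middle of their arrays (51.1 and 47.2 as percentiles), and GFP-positive 3 did not. All 6 dnMPL arrays lay above the 3 controls on this dimmer probe set, as on the brightest ones of Ccr2 and Cxcr4. The gap between the nearest arrays was 0.13, at levels far below the filter. The group means differed by 0.65 between GFP-positive cells and controls on the first probe set and by 2.17 on the second.

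The lymphocyte receptors Ccr7, Cxcr3 and Cxcr5 were low in all groups. Ccr7 was at 3.39, 3.58 and 5.41 on the GFP-positive arrays and at 3.68, 3.26 and 3.47 on the GFP-negative arrays, against 5.21, 2.81 and 3.43 on the controls. A single array in each of the GFP-positive and control groups was high, GFP-positive 3 and control 1. Cxcr3 ranged from 3.19 to 4.18 on the GFP-positive arrays, from 3.66 to 4.21 on the GFP-negative arrays and from 3.55 to 3.91 on the controls. Cxcr5 ranged from 3.06 to 3.22, from 2.74 to 3.08 and from 2.84 to 3.60 on the same groups of arrays. The deposited table gives no call of detection, so whether these transcripts were present in LSK cells cannot be read from the levels. For 6 of the 18 probe sets a value recurred on at least 2 arrays, which the authors' summary method can produce and which makes their spread look small. They were 1419609_at of Ccr1, 1460067_at of Ccr2, 1436065_at and 1442758_at of Ccr9, 1422003_at of Cxcr5 and 1450019_at of Cx3cr1.

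**Figure D2:**
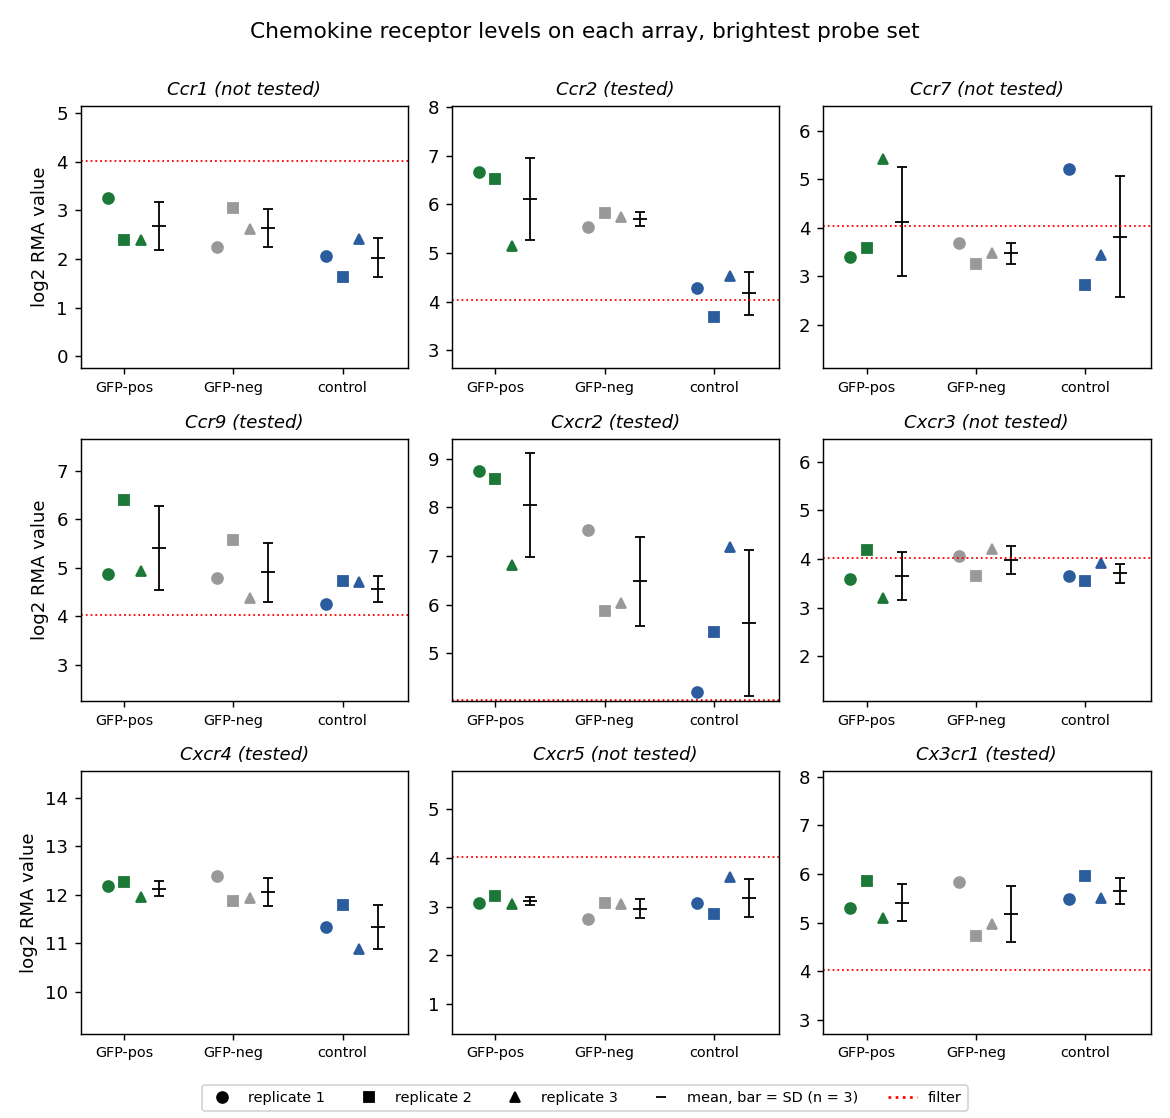
Log2 RMA value of each receptor's brightest probe set (vertical, each panel spanning the same number of units) in GFP-positive, GFP-negative and control cells, with 1 symbol per array and the mean with its SD beside each group. The dotted line is the filter at 4.03, and Ccr2 and Cxcr4 are the panels where all 6 dnMPL arrays lie above the 3 controls.

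By order of group means on each receptor's brightest probe set, GFP-positive cells were highest, GFP-negative cells next and controls lowest for Ccr1, Ccr2, Ccr9, Cxcr2 and Cxcr4. For Ccr2 and Cxcr4 the step from GFP-negative cells to controls (1.52 and 0.72) exceeded the larger of the 2 groups' SDs (0.44 and 0.46). The step between GFP-positive and GFP-negative cells (0.42 and 0.066) did not (0.84 and 0.28). Ccr2 probe set 1421188_at gave the reverse. Its step between the fractions (1.63) exceeded the larger SD (0.28), and its step from GFP-negative cells to controls (0.11) did not (0.97). For Cxcr2 the step between the dnMPL fractions (1.57) exceeded the larger SD (1.07) and that from GFP-negative cells to controls (0.86) did not (1.5). For Ccr9 neither step did (0.497 and 0.35, against SDs of 0.87 and 0.60), and for Ccr1 the step from GFP-negative cells to controls did (0.61 against 0.40). The step between the fractions on that Ccr1 probe set (0.044) did not (0.50). On the dimmer Ccr1 probe set 1419610_at, also below the filter, both steps did (1.72 against 1.66, and 0.46 against 0.37), although the fractions overlapped. Ccr7, Cxcr3, Cxcr5 and Cx3cr1 had no step larger than the larger SD.

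Read against all genes, 0 of the 12398 tested (0%) had a limma adjusted p under 0.05 in GFP-positive against control cells, and so did 0 of the 5 tested receptors. At an unadjusted p under 0.05, where 6.49% of all genes stood in either direction, 3 receptors were higher in GFP-positive cells (Ccr2, Cxcr2 and Cxcr4), where 3.30% of all genes were. In 3 of 5 (Ccr2, Ccr9 and Cxcr4) the GFP-positive arrays lay above the controls without overlap, as in 4.36% of all genes. In GFP-negative against control cells 0 genes and 0 receptors passed (0% of all genes), 2 receptors (Ccr2 and Cxcr4) had an unadjusted p under 0.05 with a higher level, against 2.83% of genes (5.57% in either direction), and the same 2 did not overlap with the controls, against 4.94%. For both fractions together against control 0 genes passed (0%), 3 receptors had an unadjusted p under 0.05 with a higher level (3.67% of genes, 7.25% in either direction), and in 2 of 5 the groups did not overlap (1.60% of genes). Between GFP-positive and GFP-negative cells 0 genes and 0 receptors passed (0%), 0 receptors had an unadjusted p under 0.05 (1.28% of genes higher, 2.55% in either direction) and 0 were without overlap, against 3.96% of genes that were higher. These counts take each receptor's brightest probe set and depend on it. Between the fractions Ccr2 probe set 1421188_at had an unadjusted p of 0.00574 in limma and no overlap. Against control it had an unadjusted limma p of 0.807 in GFP-negative cells, with overlap. In GFP-positive cells it had 0.00385 without overlap, and for both fractions together 0.0426 with overlap. Ccr9 probe sets 1436065_at and 1442758_at overlapped with the controls in GFP-positive cells. The comparisons against control share their 3 control arrays, so these counts are not independent of each other. The median difference of the 5 tested receptors from control was 0.84 in GFP-positive and 0.72 in GFP-negative cells, against -0.028 and -0.038 over all genes tested. The 0.84 is the difference of Ccr9, which was 0.34 without GFP-positive 2. The receptors were chosen with earlier results of these data known, so these counts and medians cannot test whether receptors as a set were higher.

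**Figure D3:**
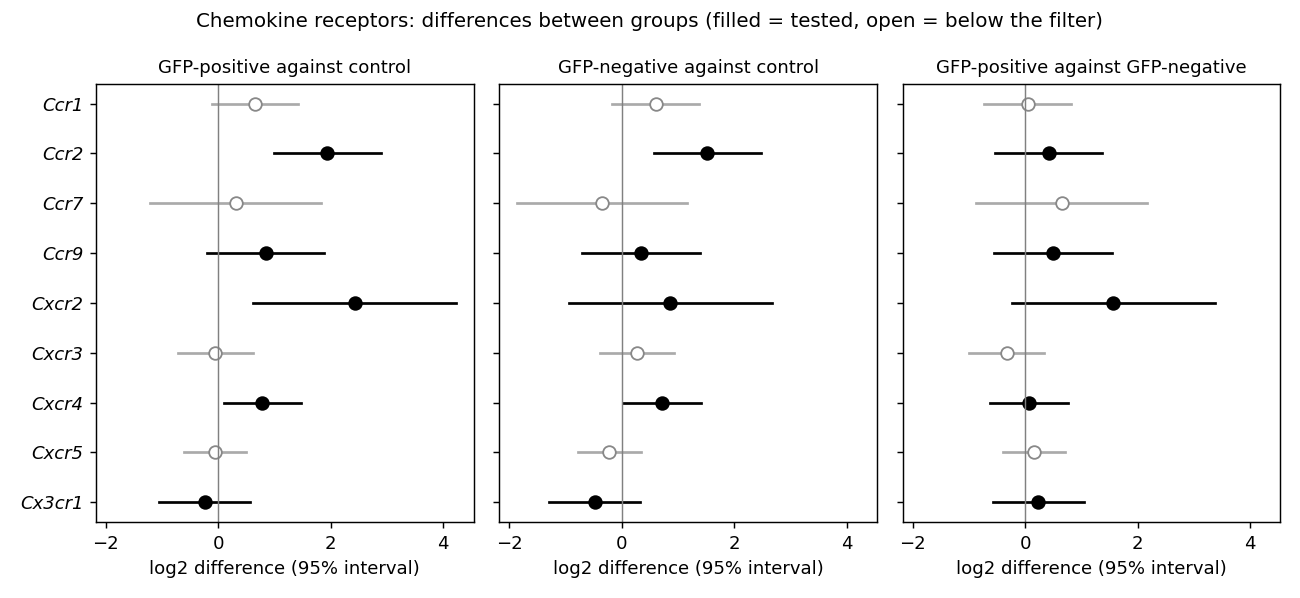
Log2 difference (horizontal) with its 95% interval from limma for each receptor's brightest probe set (vertical) in the 3 comparisons. Filled points are the 5 tested receptors and open points those below the filter. The intervals of Ccr2 and Cxcr4 lie above 0 against control in both fractions and that of Cxcr2 in GFP-positive cells, before adjustment over all genes, and every interval drawn between the 2 fractions spans 0. The intervals of the dimmer probe sets 1421188_at of Ccr2 (0.60 to 2.65) and 1419610_at of Ccr1 (0.15 to 3.28, below the filter and untested), which are not drawn, lie above 0. On the Ccr1 probe set the fractions overlap, with GFP-positive 3 (1.67) inside the GFP-negative range (1.56 to 2.28). Its difference rests on GFP-positive 1 and 2.

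The levels of Cxcr2 and Ccr2 were set beside marker genes of cells that carry these receptors. The late granulocyte list (9 of 13 genes named on the array and all 9 tested, S100a8, Lcn2 and Camp among them) had a mean level from 9.74 to 11.61 on the GFP-positive arrays, from 8.82 to 11.05 on the GFP-negative arrays and from 5.52 to 9.82 on the controls. Control 3, with the highest Cxcr2 level of the controls, also had the highest late granulocyte level (9.82), and GFP-positive 1 (11.61) and GFP-negative 1 (11.05) were highest on both in their groups. Lower ranks did not always match. Control 1 was above control 2 on the list (6.84 and 5.52) and below it for Cxcr2 (4.21 and 5.44). GFP-negative 2 was above GFP-negative 3 on the list (9.50 and 8.82) and below it for Cxcr2 (5.88 and 6.02). The GFP-positive arrays had the same order on both. In GFP-positive against control cells 9 of 9 late granulocyte genes were higher, 8 of them with an unadjusted p under 0.05, and 0 passed limma after adjustment. Among all genes tested 5851 of 12398 were higher, and 3.30% were higher at that unadjusted p. The part of these cells in the Cxcr2 difference was not tested. In bulk samples a change in the number of such cells and a change in RNA per cell cannot be told apart.

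**Figure D4:**
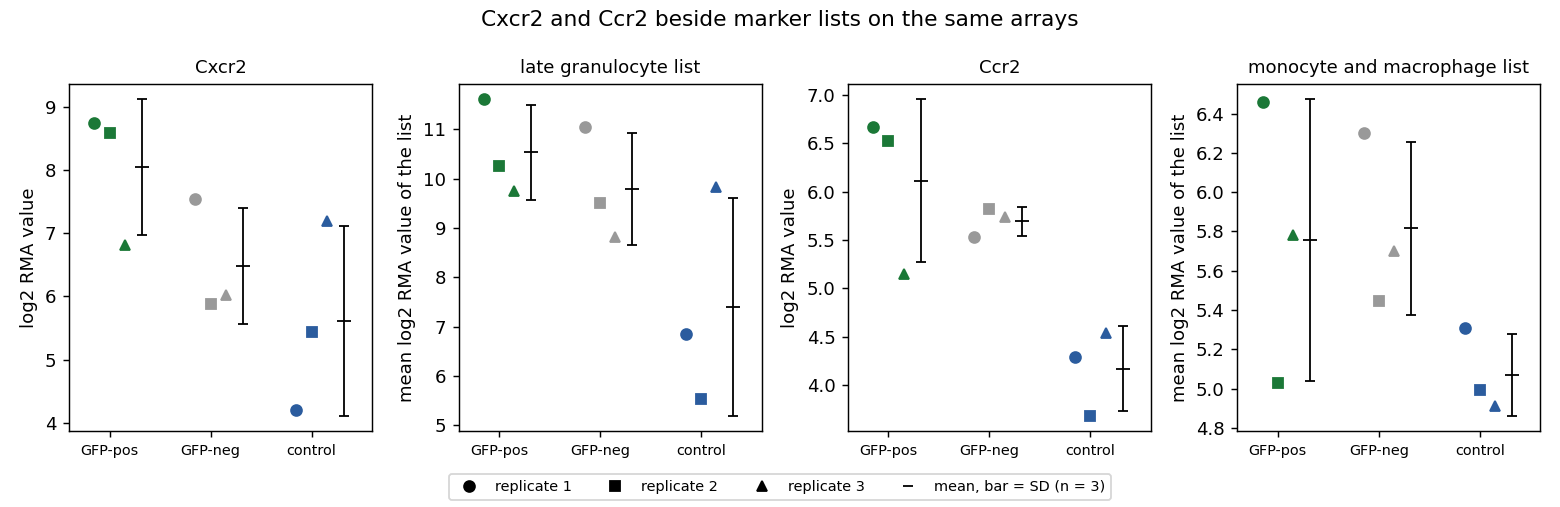
Log2 RMA values of Cxcr2 and Ccr2 and the mean log2 RMA value of 9 late granulocyte and 11 monocyte and macrophage markers on the same arrays (1 symbol per array, bars are mean and SD, n = 3). Control 3 is the highest control for Cxcr2 and for the late granulocyte list, while controls 1 and 2 are in opposite order on them. GFP-positive 2, an array that stood apart, is high for Ccr2 and low for the monocyte list.

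The monocyte and macrophage list (11 of 13 genes named, 4 of them below the filter, Cd14 and Adgre1 among those 4) had a mean level from 5.03 to 6.46 on the GFP-positive arrays, from 5.45 to 6.30 on the GFP-negative arrays and from 4.91 to 5.31 on the controls. Csf1r, the receptor for the macrophage growth factor, was at 10.83, 3.62 and 9.62 on the GFP-positive arrays and at 8.93, 7.19 and 9.51 on the GFP-negative arrays, against 4.90, 6.68 and 4.56 on the controls. GFP-positive 2, an array that stood apart, had the lowest Csf1r level of all arrays and a Ccr2 level of 6.52, the second highest. This contrast rests on that array alone, and Csf1r was chosen after its values were seen. On every other dnMPL array Csf1r was above every control, as was Ccr2 by its brightest probe set. Of the 7 tested genes of the list, 5 were higher and 2 lower in GFP-positive than in control cells, and 0 passed limma. At an unadjusted limma p under 0.05 stood 2, both higher, where 3.30% of all genes were higher. Without overlap 1 gene of the list lay above the controls and 1 below, as did 540 and 528 of all 12398 genes tested. In either direction regardless of p, 5851 of the 12398 were higher and 6547 lower. Other marker lists had a mean level above every control on all 6 dnMPL arrays, as Ccr2 and Cxcr4 did by their brightest probe sets. The primary granule list (5 genes) was at 9.04 to 10.27 on the GFP-positive and 9.55 to 9.70 on the GFP-negative arrays, against 7.31 to 8.42 on the controls. The T and NK cell list (10 genes) was at 4.77 to 5.20 and 4.79 to 4.89 on those arrays, against 4.45 to 4.54 on the controls. The dendritic cell list (9 genes) was at 6.09 to 6.49 and 6.10 to 6.31, against 5.86 to 6.05 on the controls. For Cxcr4, B cell markers, whose cells also carry this receptor, had a mean level from 5.99 to 6.58 on the GFP-positive arrays, from 4.85 to 5.85 on the GFP-negative arrays and from 3.84 to 5.64 on the controls, and stem cell genes from 5.23 to 5.68, from 5.42 to 5.92 and from 6.74 to 6.82 on the same arrays. Their part in the receptor differences was not tested.

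Other genes of the chemokine system were counted from fixed lists, with 0 passing limma in any comparison. Of 14 other chemokine receptors 12 had a named probe set and 4 were tested, all of them atypical receptors (Ackr1, Ackr2, Ackr4 and Ccrl2). Against control the 4 had a median difference of -0.11 for both dnMPL fractions together, against -0.033 over all genes, with 0 at an unadjusted p under 0.05. Ccrl2 differed by -0.70 ± 0.56 (SE), Ackr2 by -0.16 ± 0.31 and Ackr1 by -0.063 ± 0.25. Between GFP-positive and GFP-negative cells Ccrl2 differed by 1.15 ± 0.65, Ackr2 by -0.30 ± 0.35 and Ackr4 by 0.19 ± 0.32 (limma adjusted p = 1.00 for each).

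Of 28 chemokine ligands 16 were tested, and 9 were higher and 7 lower in both dnMPL fractions together than in controls (median 0.016), with 1, Ccl4, at an unadjusted p under 0.05, where 7.25% of all genes stood. That share of the ligands, 1 of 16, is near the background. Ccl4, an inflammatory CC chemokine, was at 6.00, 6.09 and 6.12 on the GFP-positive arrays and at 5.56, 6.19 and 6.77 on the GFP-negative arrays, against 7.74, 7.05 and 6.92 on the controls. All dnMPL arrays lay below the controls, as in 1.96% of all genes, and the difference of -1.11 ± 0.31 (SE) did not pass (limma adjusted p = 0.494). Cxcl12, the ligand of Cxcr4, was at 6.63, 6.45 and 3.96 on the GFP-positive arrays and at 6.18, 5.40 and 3.36 on the GFP-negative arrays, against 2.81, 3.38 and 4.66 on the controls, and replicate 3 of each dnMPL fraction overlapped with the controls. It differed by 1.71 ± 0.77 and Pf4, platelet factor 4, by -1.44 ± 0.67 (limma adjusted p = 0.689 and 0.713). Between GFP-positive and GFP-negative cells the 3 ligands with the smallest p were Cxcl10 (-0.98 ± 0.47), Cxcl16 (0.70 ± 0.40) and Ccl2 (0.52 ± 0.30).

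Of 32 signalling and desensitisation genes 29 were tested, and 10 were higher and 19 lower in both dnMPL fractions than in controls (median -0.13), with 1 higher and 3 lower at an unadjusted p under 0.05, against 3.67% of all genes higher and 3.58% lower. Rgs1, which shortens G protein signals behind chemokine receptors, was at 8.69, 9.93 and 9.11 on the GFP-positive arrays and at 9.15, 8.91 and 8.98 on the GFP-negative arrays, against 11.10, 10.30 and 10.54 on the controls. Every dnMPL array was below every control, and the difference of -1.52 ± 0.31 (SE) did not pass (limma adjusted p = 0.245). Rgs2, of the same family, differed by -0.76 ± 0.32, and Rac2, a small GTPase of blood cells needed for directed movement, by 1.00 ± 0.35 (limma adjusted p = 0.654 and 0.591). Between the fractions Elmo1, which acts with Dock2 to activate Rac, differed by 0.64 ± 0.25, the scaffold arrestin Arrb2 by 0.69 ± 0.40 and the G protein subunit Gnai3 by -0.69 ± 0.41 (limma adjusted p = 1.00 for each).

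**Figure D5:**
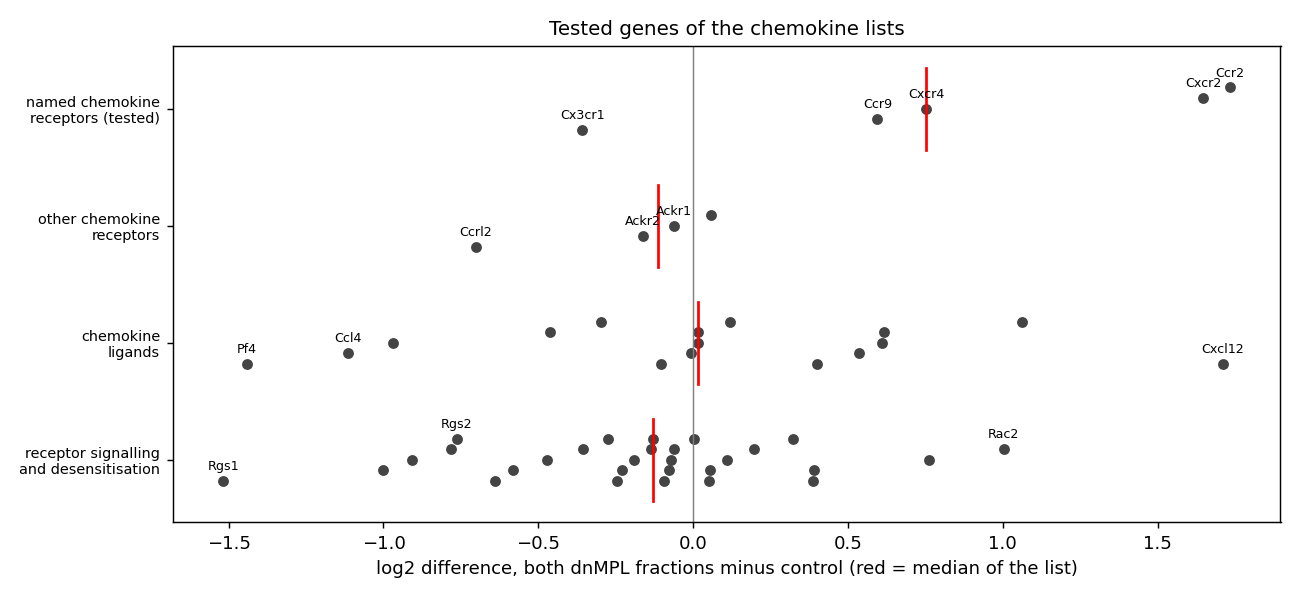
Log2 difference between both dnMPL fractions together and control (horizontal) for the tested genes of the named receptors and 3 other chemokine lists (rows), with the median of each list in red and the genes of the text labelled. Ccr2, Cxcr2 and Cxcl12 lie furthest right, and Rgs1 and Pf4 furthest left.

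The genes whose pattern over the 9 arrays was most like that of a receptor were ranked by Pearson's r among the tested genes. For Ccr2 they were Fabp4, a fatty acid binding protein (r = 0.92), and the red cell anion exchanger Slc4a1 (r = 0.92), for Cxcr2 the protease Ctss (r = 0.97) and the protease inhibitor Slpi (r = 0.95), and for Cxcr4 the prefoldin gene Pfdn4 (r = 0.95) and the actin-related Actr3 (r = 0.95). Ccr9 was most like Fem1a (r = 0.96) and Zfp715 (r = 0.95), and Cx3cr1 most like Celf4 (r = 0.91) and Lrrc66 (r = 0.90). The 9 arrays share their groups and array quality, so these values describe likeness on these arrays. Slc4a1, for example, was at 7.59, 8.87 and 6.96 on the GFP-positive arrays and at 7.34, 7.05 and 5.94 on the GFP-negative arrays, against 3.19, 2.20 and 4.94 on the controls, all dnMPL arrays above all controls as for Ccr2.

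On the RefSeq table's map, 5 of the 9 receptor genes are on chromosome 9. Ccr2 lies next to Ccr3, and Ccr1 next to Xcr1. Ccr3 and Xcr1, like the other typical receptors of the wider list that had a named probe set, were below the filter, as was the atypical receptor Ackr3.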

How the data were processed

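RNA of 9 LSK samples was amplified, biotin-labelled and hybridised to mouse Affymetrix arrays, per the labels. The authors deposited log2 expression values made with RMA (background correction, quantile normalization, 1 summary per probe set), per the submitters' processing notes, where its version is missing. A genome build was not given in the sources used here. Of 45101 probe sets, 64 are control probe sets, 34945 name 1 gene, 932 several and 9160 none, and 34741 were matched to a current RefSeq symbol. The brightest probe set by mean stood for a gene, and 12398 of 18193 genes passed the filter. All 9 arrays entered 1 fit of group means (lmFit and eBayes of limma 3.58.1, under R 4.3.3), with Benjamini-Hochberg adjustment over all genes tested and a threshold of 0.05. Both dnMPL fractions were also averaged against control. The fit was tested on simulated data. An exact permutation test of 3 against 3 cannot go below 0.1.

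Members, lists and alternatives were chosen with earlier results of these data known. Named were all 9 receptors, the 3 genes of each other chemokine list with the smallest p, the 2 genes most alike to each tested receptor, and Kit and the Gapdh probe sets as checks. Csf1r, late granulocyte examples and Slc4a1's values were chosen after their values were seen. Other settings tried were 2 filters, 2 ways to combine probe sets, another variance prior, array weights, 2 normalizations, a fit of 2 groups alone, a replicate block, a threshold of 0.1 and fits without 1 or 2 arrays. Drawing used matplotlib 3.10.9 in Python 3.11.15.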

Additional observations from a re-analysis of the deposited data

How the results depend on the processing

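In the 3 comparisons of pairs of groups, 0 genes and 0 receptors passed under each of the 21 alternatives, leaving out single arrays included. For both dnMPL fractions against control, 0 receptors passed under 20 alternatives, and array weights called 3 genes where the equal-weight fit called 0 (Fabp4, Fcgr3 and Slc4a1), with Ccr2 at 1.93 (limma adjusted p = 0.0911). Ccr2, Cxcr2 and Cxcr4 kept a positive difference from control under each alternative run. Without 1 array, Ccr2 ranged from 1.66 to 2.43 in GFP-positive and from 1.28 to 1.71 in GFP-negative cells, Cxcr4 from 0.55 to 1.02 and from 0.49 to 0.95, and Cxcr2 from 1.73 to 3.22 and from 0.16 to 1.65. Between GFP-positive and GFP-negative cells, Ccr9 changed sign with array weights (-0.029) and without control 3 and GFP-positive 2 together (-0.0026), and ranged from -0.0026 to 0.83 without 1 array, while Cxcr4 ranged from -0.030 to 0.23. None of these passed, and the cause was not tested. By the mean of its probe sets Ccr1 differed by 1.41 between GFP-positive and control cells, and Ccr9 was below the filter and gave no value. With the filter at the median of the probe sets, fewer ligands were tested and their median was 0.59 in GFP-positive and 0.47 in both fractions against control.

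Whether the replicate numbers of the labels pair the arrays was not settled. Same-numbered arrays of different groups correlated from -0.29 to 0.099 in their deviations, and control 2 correlated best with GFP-positive 3 (0.28). With 3 arrays a group, and control 3 and GFP-positive 2 standing apart, these values cannot tell whether same-numbered arrays shared mice. With the number as a replicate block 0 genes and 0 receptors passed, and Ccr2 in GFP-positive against control cells had a limma adjusted p of 0.502.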
